A study of Mus musculus with 10 samples.

Results

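The 10 imprinted genes H19, Igf2, Meg3, Rian, Mirg, Dlk1, Ndn, Grb10, Peg3 and Plagl1, an imprinted network that has been linked to stem cell quiescence, were followed in RNA sequencing of bone marrow LSK cells. LSK cells lack lineage markers and carry Sca-1 and c-Kit on their surface, a gate that holds hematopoietic stem cells together with multipotent progenitors. The members were taken by gene symbol from the count table, in which all 10 of the 10 symbols were found among 25078 listed genes. Both groups were mice on a C57BL/6 background that carried the inv(16) fusion allele Cbfb-MYH11 (Cbfb 56M/+) and Mx1-Cre, and were given poly(I:C) when 6 to 8 weeks old. CM mice (n = 5) carried no further modification, and CM/miR-126Δ/Δ mice (n = 5) also carried both floxed copies of miR-126, so that Cre removed the microRNA at the same time as it switched on the fusion. Mx1-Cre responds to interferon in many tissues, so the deletion is not limited to LSK cells, and a group without the fusion was not analysed here. Cells were collected at the preleukemic stage, 6 weeks after poly(I:C), with 1 library per mouse and the mice numbered 1 to 5 in each genotype. The question put to the data was how these genes stand in CM LSK cells and whether they differ when miR-126 is deleted.

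An imprinted gene is transcribed mainly from the copy inherited from 1 parent, because the other copy carries DNA methylation or another mark set in the germ line. Dlk1, Igf2, Ndn, Peg3 and Plagl1 are expressed mainly from the paternal copy, and H19, Meg3, Rian and Mirg from the maternal copy, while Grb10 is maternal in most tissues and paternal in neurons. Several of these genes restrain growth, and the Dlk1-Meg3 and H19-Igf2 loci are known for their part in keeping long-term hematopoietic stem cells out of cycle. In mm10 the table placed H19 on chromosome 7 from 142575530 to 142578146 and Igf2 from 142650768 to 142666816 (both minus strand), and Ndn (62348277 to 62349927, plus strand) and Peg3 (6705960 to 6730419, minus strand) elsewhere on that chromosome. On chromosome 12, all on the plus strand, it placed Dlk1 from 109452823 to 109463336, Meg3 from 109540996 to 109571729, Rian from 109603945 to 109661711 and Mirg from 109734981 to 109749457. Grb10 lay on chromosome 11 from 11930499 to 12037420 (minus strand) and Plagl1 on chromosome 10 from 13090832 to 13131694 (plus strand). The counts do not separate the parental copies, so only the total level of each gene is described.

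The genotypes differ in the microRNA below, encoded on the plus strand of chromosome 2 (chr2:26591402-26591423, GRCm38.p6, RefSeq). Its seed, bases 2 to 8, is in capitals and was used to search the members. The other strand of the miR-126 precursor, which the deletion also removes, was not searched. Sites for that strand in the members, Dlk1 among them, are therefore not known here.
miR-126a-3p: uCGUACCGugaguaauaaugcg
The 3′ untranslated regions of the 6 protein-coding members (Dlk1, Grb10, Igf2, Ndn, Peg3 and Plagl1) held 0 matches to its 6-base site GGTACG in the reference transcripts, read on the sense strand. Over 19915 genes with such a region, 2.95% held the 6-base site and 0.211% the 7-base site CGGTACG, which contains it. For Dlk1, the member that differed most clearly between the genotypes, and for both start sites of Grb10, the member with the highest level, the window from 250 bases before to 50 bases after the start is shown with each CG dinucleotide, the position that DNA methylation marks, in capitals.
Dlk1, plus strand, chr12:109452573-109452872: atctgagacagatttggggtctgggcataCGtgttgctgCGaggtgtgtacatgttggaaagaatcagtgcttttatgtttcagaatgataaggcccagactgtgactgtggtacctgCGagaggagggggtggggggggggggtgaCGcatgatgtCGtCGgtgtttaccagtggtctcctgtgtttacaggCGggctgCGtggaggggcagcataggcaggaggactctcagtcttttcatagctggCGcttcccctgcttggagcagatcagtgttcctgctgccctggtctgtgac
Grb10, minus strand, chr11:12037371-12037670: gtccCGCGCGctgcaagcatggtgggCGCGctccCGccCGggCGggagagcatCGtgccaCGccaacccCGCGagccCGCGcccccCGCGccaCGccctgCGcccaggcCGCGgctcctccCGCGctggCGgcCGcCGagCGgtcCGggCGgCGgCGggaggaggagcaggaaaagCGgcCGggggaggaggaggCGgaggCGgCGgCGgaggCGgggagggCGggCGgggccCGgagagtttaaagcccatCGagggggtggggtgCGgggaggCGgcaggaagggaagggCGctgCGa
Grb10, minus strand, chr11:12027922-12028221: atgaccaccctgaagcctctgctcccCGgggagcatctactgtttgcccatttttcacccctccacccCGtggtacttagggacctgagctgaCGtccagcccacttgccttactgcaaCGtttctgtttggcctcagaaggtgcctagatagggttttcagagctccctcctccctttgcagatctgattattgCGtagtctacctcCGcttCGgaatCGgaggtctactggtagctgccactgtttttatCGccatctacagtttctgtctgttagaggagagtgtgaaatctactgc

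These windows are from RefSeq (GRCm38.p6, the assembly that mm10 denotes), where 9 of the 10 members matched with 14 windows. The outer Grb10 window held 45 CG dinucleotides, a number reached by 1.93% of all 32851 windows, while the inner Grb10 window and the Dlk1 window held 9 each, near the median of 7 over all windows. The Rian window held 0. The 8 bases GGGGCCCC, a core site of the zinc finger protein made by Plagl1 that reads the same on both strands, occurred in 1 of the 14 windows, that of Peg3, and in 1.08% of all windows. A match of this kind describes the letters only.

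As a check of the labels, the miR-126 precursor Mir126a was read 4, 5, 0, 2 and 3 times in CM mice 1 to 5 and 0 times in each of the CM/miR-126Δ/Δ mice, with CM mouse 3 also at 0. Libraries held 23649233 to 33202086 counts in CM and 24141663 to 26615091 in CM/miR-126Δ/Δ mice, more in CM (exact permutation test, two-sided, p = 0.0476), and 3 counts, taken as the detection floor, stood for 0.0908 to 0.131 CPM (counts scaled to a common library size with TMM factors), which covers counting error only. Rn45s, the ribosomal RNA precursor, took 14.8% to 22.6% of the counts, with the highest share in CM/miR-126Δ/Δ mouse 3, whose RNA concentration was also the lowest (16.1 ng/µl). This library held the lowest Igf2, Meg3, Rian and Ndn values of all 10, and results for these genes are given with and without it. The LSK label was borne out by its markers: Kit was at 702 to 1001 CPM, Cd34 at 791 to 1025, Hlf at 526 to 816 and Ly6a, which encodes Sca-1, at 43.6 to 70.3 CPM over the 10 mice. In mice 1 to 3 of both genotypes Xist was at 2467 to 5951 CPM, and in mice 4 and 5 it was at most 0.706 CPM while the Y-linked gene Ddx3y was at 64.5 CPM or more. The labels do not give the sex of each mouse, and the study used females and males.

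Most of the network was at a low RNA level in these cells. Each value is an average over all sorted cells, and the level in stem cells alone was not measured. Levels were compared between genes as RPKM, here the CPM divided by the exon length in kilobases. Grb10, which encodes an adaptor that dampens insulin and growth factor receptors, stood far above the rest at 13.3 ± 3.40 RPKM (SD, n = 10; 8.71 to 19.2). Ndn, which encodes necdin, a growth-restraining protein of the MAGE family, followed at 1.28 ± 0.343 RPKM (0.870 to 1.95). Dlk1, which encodes a transmembrane protein with EGF-like repeats related to Notch ligands, was at 0.394 ± 0.182 RPKM (0.148 to 0.687). The ranges of these 3 genes did not overlap with each other.

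From Dlk1 down the ranges of neighbouring genes overlapped, so their order was not fixed by the data. The noncoding RNA Rian was at 0.173 ± 0.0872 RPKM, Igf2, which encodes a fetal growth factor, at 0.125 ± 0.0663, Plagl1, which encodes a zinc finger transcription factor that halts the cell cycle, at 0.117 ± 0.0860, and the noncoding RNA Meg3 at 0.0627 ± 0.0326 (SD, n = 10 each). The noncoding RNAs H19 and Mirg and the zinc finger gene Peg3 were lowest, at 0.0223 ± 0.0271, 0.0134 ± 0.0186 and 0.00737 ± 0.00562 RPKM. Over all 10 libraries these 3 genes had 13, 5 and 14 counts. In CPM, 7 of the 10 members had a mean under 1.

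**Figure D1:**
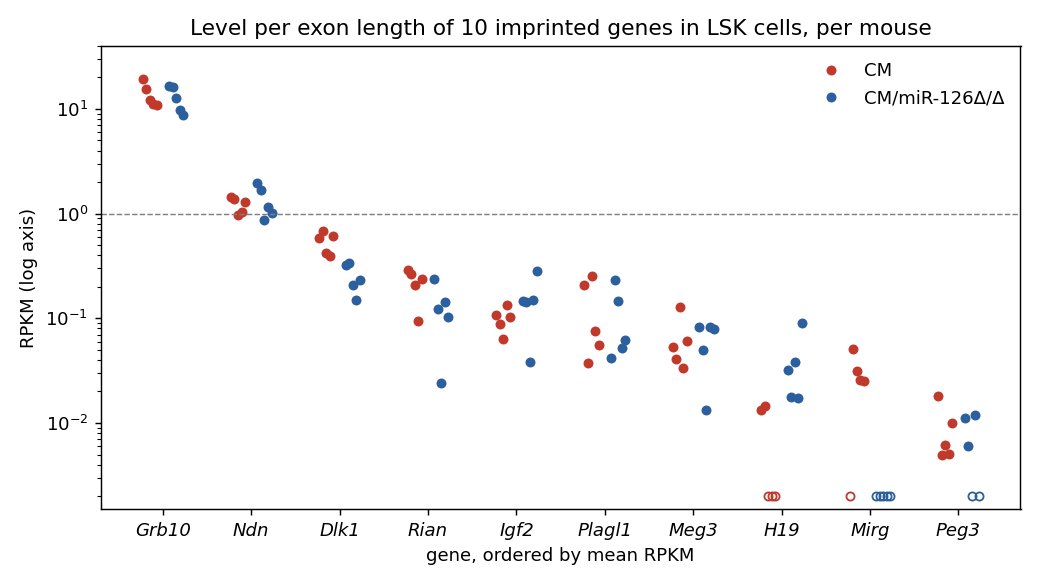
RPKM of each member in each of the 10 mice on a log axis, with genes ordered by their mean, CM in red and CM/miR-126Δ/Δ in blue. Open circles at the lower edge are libraries with 0 counts, and the dashed line marks 1 RPKM, which Grb10 exceeded in all mice, Ndn in most and no other member in any.

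Between the genotypes, Dlk1 was the member that separated them with counts well above the floor. Its counts in CM mice 1 to 5 were 92, 100, 49, 57 and 89, or 2.79, 3.30, 2.01, 1.92 and 2.94 CPM. In CM/miR-126Δ/Δ mice 1 to 5 they were 42, 40, 23, 18 and 27, or 1.56, 1.61, 1.00, 0.713 and 1.11 CPM. Every CM/miR-126Δ/Δ mouse thus lay below every CM mouse. The mean went from 2.59 ± 0.605 to 1.20 ± 0.382 CPM (SD, n = 5 each), 2.15-fold lower in the fit. The log2 fold change was −1.11 (standard error 0.254, and −1.61 to −0.60 at 2 standard errors) in edgeR's quasi-likelihood test over 18747 genes.

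The unadjusted p of Dlk1 was 0.000639, and after Benjamini-Hochberg adjustment over all genes fitted the edgeR p was 0.479, so the difference did not pass correction. The exact permutation test of the CPM values gave p = 0.00794, the smallest that 5 mice against 5 allow (two-sided). By the cutoffs of the study (p at or below 0.01, fold change of at least 1.5, mean RPKM of at least 1 in a genotype) 0 of the 10 members were called, where 0.288% of all genes were. Dlk1 met the first 2 cutoffs, with 0.197% of all genes meeting them in the lower direction, and missed the third with 0.538 RPKM in CM and 0.249 RPKM in CM/miR-126Δ/Δ. Ranges that did not overlap, lower in CM/miR-126Δ/Δ, were found for 1 member (Dlk1) and for 0.528% of all genes. With DESeq2 the adjusted p of Dlk1 was 0.0242, and over all alternatives it ran from 0.0242 to 0.862.

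In sorted cells a lower count can come from fewer cells that express a gene or from less RNA in each, and these cannot be told apart here. Dlk1 is also a gene of mesenchymal cells. Of the 10 bone marrow stroma markers, 7 were higher and 3 lower in CM/miR-126Δ/Δ (median log2 fold change 0.24), with 0 at an unadjusted p under 0.05. Lepr, Col3a1, Dcn and Adipoq had no library above 0.174 CPM and Col1a1 none above 0.784 CPM. Others stood at or above the level of Dlk1, with Bgn at 10.4 to 25.3 CPM, Cxcl12 at 1.16 to 5.33, Sparc at 1.26 to 3.30 and Col1a2 at 0.538 to 3.85 CPM over the 10 mice. Cxcl12 averaged 3.70 ± 1.60 CPM in CM mice against 2.78 ± 1.21 without miR-126 (SD, n = 5 each; log2 fold change −0.41, edgeR unadjusted p = 0.259). Bgn and Sparc went the other way, with log2 fold changes of 0.33 and 0.34, and Col1a2 hardly differed (0.024). The summed level of the list, mostly Pdgfrb, was 112 to 170.1 CPM in CM and 129 to 171 CPM in CM/miR-126Δ/Δ. Of the 10 LSK markers, 8 were higher and 2 lower in CM/miR-126Δ/Δ (median log2 fold change 0.12). An unadjusted p under 0.05 was found for 3 of them, each higher in CM/miR-126Δ/Δ, and for 6.61% of all genes. These were Hlf, a stem cell transcription factor, with a log2 fold change of 0.31, Meis1 with 0.19 and Mecom with 0.24 (edgeR adjusted p = 0.661, 0.746 and 0.748). Their part in the Dlk1 difference was not tested.

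The maternally expressed noncoding RNAs downstream of Dlk1 had fewer counts, and their changes were not compared with that of Dlk1 by a test. Rian, host of box C/D small nucleolar RNAs, was read 34, 29, 18, 10 and 26 times in CM mice 1 to 5, against 23, 11, 2, 13 and 9 in CM/miR-126Δ/Δ mice. The ranges of 0.336 to 1.03 and 0.0871 to 0.853 CPM overlapped. Its log2 fold change was −0.77 (standard error 0.438, edgeR adjusted p = 0.765; exact permutation test, p = 0.119), and with a mouse left out it ran from −0.52, without CM/miR-126Δ/Δ mouse 3, to −1.12, without mouse 1 of that genotype (unadjusted p = 0.0278, with 0.0447 without CM mouse 4).

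Meg3, a nuclear RNA that starts the same maternal transcription unit, had 23, 16, 41, 13 and 24 counts in CM and 29, 16, 4, 27 and 25 in CM/miR-126Δ/Δ mice. Its means of 0.826 ± 0.496 and 0.799 ± 0.392 CPM differed by less than the spread (SD, n = 5 each; log2 fold change −0.025, standard error 0.449, edgeR adjusted p = 0.988). The interval at 2 standard errors, −0.92 to 0.87, leaves room for a change of nearly the size seen for Dlk1. Without CM/miR-126Δ/Δ mouse 3 the log2 fold change was 0.23, and without CM mouse 3, at 1.68 CPM, it was 0.40. Mirg, host of many microRNAs of this locus, had 0, 2, 1, 1 and 1 counts in CM mice and 0 in every CM/miR-126Δ/Δ mouse (exact permutation test, p = 0.0476; edgeR adjusted p = 0.746). All 10 libraries were under the floor for Mirg, so a difference was not detectable at this depth and no fold change is given.

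From Dlk1 to Dio3 (chromosome 12, 109452823 to 110281097, 828275 bases) the table listed 76 genes, of which 18 had any count. Dlk1, Meg3 and Rian took nearly all of the 963 counts in this stretch. The 60 microRNA precursors listed there had 12 counts over all libraries, and none had more than 3. Rtl1, the paternally expressed retrotransposon-derived gene between Meg3 and Rian, had 1 count and 6430411K18Rik had 8. These libraries of long RNA do not measure mature microRNAs.

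**Figure D2:**
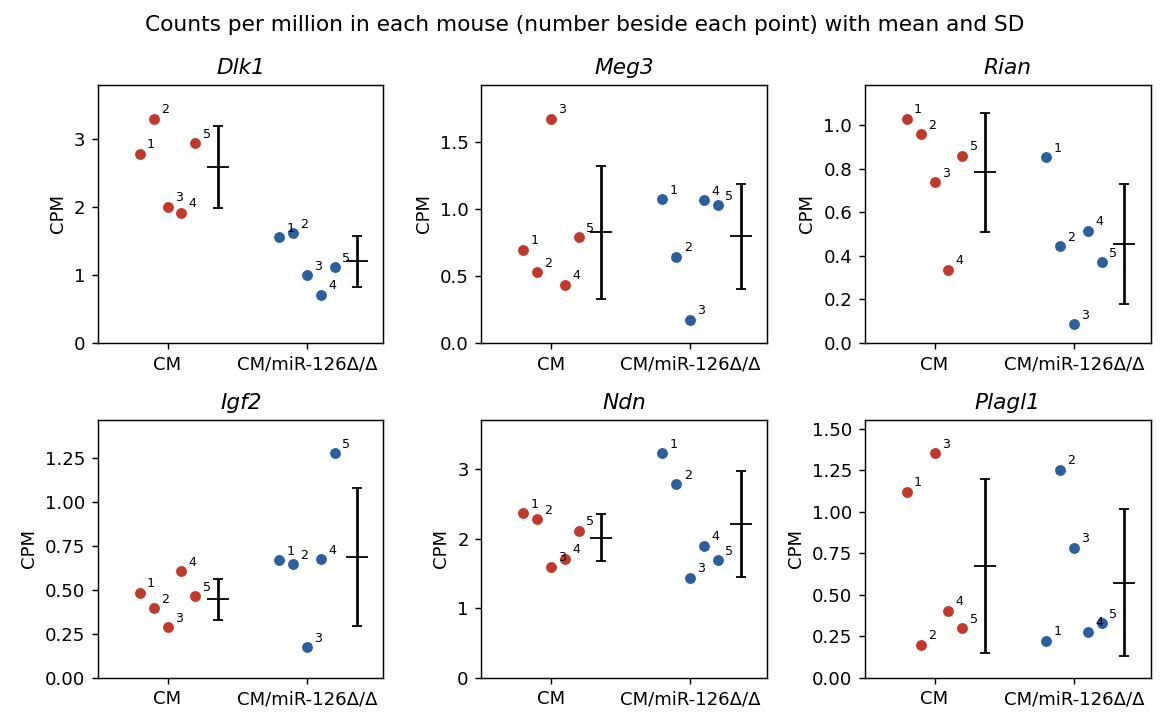
CPM of Dlk1, Meg3, Rian, Igf2, Ndn and Plagl1 in each mouse, with the mouse number beside its point and the mean with SD to the right of each genotype. The points of the genotypes are apart for Dlk1 (1.92 to 3.30 against 0.713 to 1.61 CPM) and overlap for the other 5 genes.

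At the H19-Igf2 locus on chromosome 7 the counts were fewer still. Igf2 had 16, 12, 7, 18 and 14 counts in CM and 18, 16, 4, 17 and 31 counts in CM/miR-126Δ/Δ mice, and the groups overlapped. The means were 0.447 ± 0.117 and 0.687 ± 0.391 CPM (SD, n = 5 each), with a log2 fold change of 0.61 (standard error 0.407, edgeR adjusted p = 0.765; exact permutation test, p = 0.238). Without CM/miR-126Δ/Δ mouse 3, at 0.174 CPM, the log2 fold change was 0.85 (unadjusted p = 0.0227, edgeR adjusted p = 0.704), and without mouse 5 of the same genotype, at 1.28 CPM, it was 0.27. The difference in Igf2 therefore rested on single mice. Igf2os, a gene on the opposite strand that overlaps Igf2, had 9 counts, and reads of the 2 strands may not have been kept apart, since the strand setting of the counting is not given in the sources used here.

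H19, an abundant fetal RNA, was read 1, 1, 0, 0 and 0 times in CM mice 1 to 5, with 2, 1, 2, 1 and 5 counts in CM/miR-126Δ/Δ mice. In counts the groups met, since CM mice 1 and 2 and CM/miR-126Δ/Δ mice 2 and 4 each had 1 count. The CPM ranges lay apart (0 to 0.0330 against 0.0396 to 0.206) only through the larger CM libraries, for 1 member and 0.571% of all genes, and nothing is read from that (edgeR unadjusted p = 0.0132, adjusted p = 0.733). Since 9 of the 10 libraries had fewer than 3 counts, no fold change is given. The precursor Mir675 inside H19 had 0 counts.

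The other 4 members lie outside these loci. Grb10 had the most counts of the members, 1553 to 3313 in CM and 1107 to 2341 in CM/miR-126Δ/Δ mice, and was measured most precisely. Its CPM in CM mice 1 to 5 was 100.3, 80.4, 63.6, 58.0 and 57.0, and in CM/miR-126Δ/Δ mice 86.8, 84.8, 66.1, 51.0 and 45.6. The genotypes overlapped throughout (71.9 ± 18.5 against 66.8 ± 18.9 CPM, SD, n = 5 each). The log2 fold change was −0.10 (standard error 0.189, −0.48 to 0.27 at 2 standard errors, edgeR adjusted p = 0.913). The exact permutation test gave p = 0.667. Its sign turned without CM mouse 1 (0.058) and without CM/miR-126Δ/Δ mouse 5 (0.0056). Leaving out 1 mouse also unbalances the mouse numbers between the genotypes, and Grb10 went with the number. With the mouse number as a block the log2 fold change was −0.12 (standard error 0.0665, edgeR unadjusted p = 0.106). With sex as a covariate, chosen after seeing the data, it was −0.12 (standard error 0.110).

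Grb10 values also lay apart by the number of the mouse, a pattern noticed in the data. In mice 1 to 3 of both genotypes, those with Xist, Grb10 was at 63.6 to 100.3 CPM, and in mice 4 and 5, those with Ddx3y, it was at 45.6 to 58.0 CPM. Within each genotype Grb10 also fell at every step from mouse 1 to mouse 5. Dividing mice 1 to 3 from mice 4 and 5 therefore does not tell a break from a gradual fall along the number. Grb10 was 1 of the 10 members with ranges apart by this division, against 2.51% of all genes. In an edgeR fit with genotype and this division as terms, chosen after the data were seen, Grb10 was lower in mice 4 and 5 by a log2 difference of −0.61 (standard error 0.114, unadjusted p = 0.000106, adjusted p = 0.0552), just short of an adjusted p of 0.05, which 0.155% of all genes passed. Plagl1 was next, with a log2 difference of −1.31 (standard error 0.532, unadjusted p = 0.0274, edgeR adjusted p = 0.476). The number of a mouse and its sex run together in this design, and sex cannot be told apart from litter or day of collection.

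Plagl1 varied most among the members with a mean of at least 10 counts per library. Its CPM in CM mice 1 to 5 was 1.12, 0.198, 1.35, 0.403 and 0.297, and in CM/miR-126Δ/Δ mice 0.223, 1.25, 0.784, 0.277 and 0.329. High and low mice thus occurred in both genotypes, and mice 4 and 5 were low in both. The coefficient of variation over all mice was 73.7%, where the median of the 2604 genes with 10 to 100 counts per library was 32.0%. Plagl1 lay low in that span, with a mean of 16.7 counts, where counting error is larger. Igf2, Rian and Meg3, at means of 15.3, 17.5 and 21.8 counts, varied by 53.0%, 50.4% and 51.9%. The log2 fold change between genotypes was −0.23 (standard error 0.579, edgeR adjusted p = 0.942; exact permutation test, p = 0.746). Hymai, an untranslated transcript that overlaps Plagl1 on the same strand, had 31 counts where Plagl1 had 167, and reads common to both can be lost to either.

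Ndn was at 2.36, 2.28, 1.60, 1.71 and 2.11 CPM in CM mice 1 to 5 and at 3.23, 2.79, 1.44, 1.90 and 1.69 CPM in CM/miR-126Δ/Δ mice. The genotypes overlapped, with a log2 fold change of 0.13 (standard error 0.240, −0.35 to 0.61 at 2 standard errors, edgeR adjusted p = 0.913; exact permutation test, p = 0.603), and without CM/miR-126Δ/Δ mouse 1 it was −0.033, while without mouse 3 of that genotype it was 0.25. Peg3 had 4, 1, 1, 1 and 2 counts in CM mice and 2, 1, 0, 2 and 0 in CM/miR-126Δ/Δ mice, of which only CM mouse 1 was above the floor of 3 counts. No fold change is given for it.

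**Figure D3:**
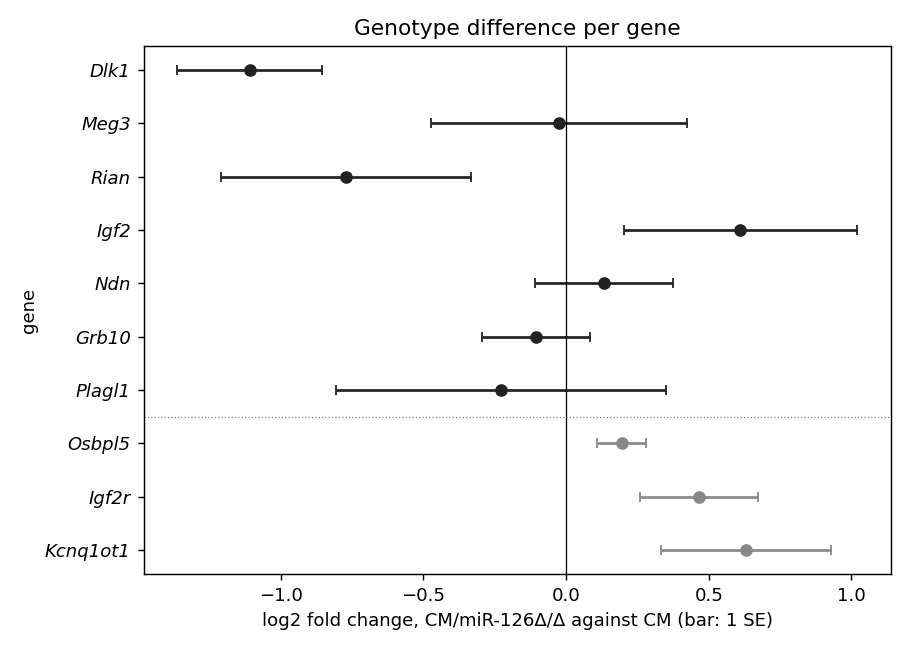
Log2 fold change of CM/miR-126Δ/Δ against CM with 1 standard error for the 7 members with a mean of at least 10 counts per library (black) and for Osbpl5, Igf2r and Kcnq1ot1 (grey). Dlk1 lies at −1.11 and is the only one of these members whose interval at 2 standard errors leaves out 0. The grey genes were picked for the smallest p on the list of other imprinted genes, without Airn and Kcnq1. Their intervals at 2 standard errors leave out 0 as well.

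Over the whole list, 3 members were higher and 7 lower in CM/miR-126Δ/Δ, with a median log2 fold change of −0.17 where that of all genes fitted was −0.0100. The median does not depend on the size of the values of H19 and Mirg, but on their sign. An unadjusted p under 0.05 was found for 3 of the 10 (Dlk1, H19 and Mirg) and for 6.61% of all genes, and an adjusted p under 0.05 for 0 members and 0.0107% of all genes. Since H19 and Mirg were at the floor, this count rests on a single well-measured gene.

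**Figure D4:**
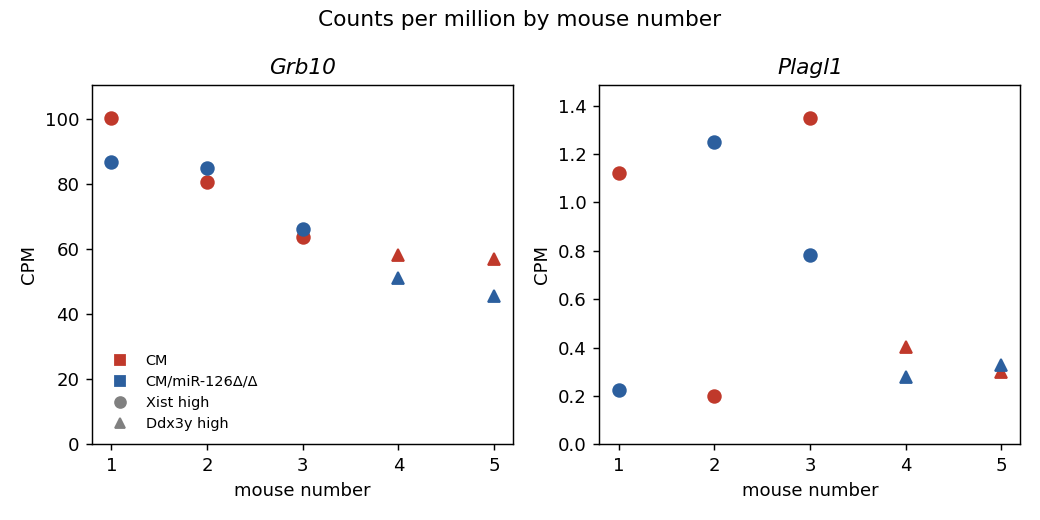
CPM of Grb10 (left) and Plagl1 (right) by mouse number, CM in red and CM/miR-126Δ/Δ in blue, with circles for mice with Xist and triangles for mice with Ddx3y. For Grb10 the 6 circles lie at 63.6 CPM or more and the 4 triangles at 58.0 CPM or less in both genotypes.

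Whether members vary together between mice was asked for the 7 with a mean of at least 10 counts per library, as correlations of log2 CPM over the 10 mice (21 pairs). None had an adjusted p under 0.05, and without regard to genotype the lowest was 0.321. On that scale Ndn and Grb10 had the highest value, r = 0.675 (permutation test, p = 0.0336, adjusted p = 0.321), with rho = 0.624 (permutation test, p = 0.0602, adjusted p = 0.521) and r = 0.537 without the 2 mice farthest from the median of Ndn. Rian and Dlk1 had r = 0.65 (permutation test, p = 0.0388, adjusted p = 0.321) and rho = 0.697 (permutation test, p = 0.0304, adjusted p = 0.521). Without the 2 mice farthest from the median of Rian, r was 0.769. Meg3 and Rian had r = 0.653 (permutation test, p = 0.0462, adjusted p = 0.321) and rho = 0.333 (permutation test, p = 0.348, adjusted p = 0.673), and without the 2 mice farthest from the median of Meg3 r was 0.0733, so that this relation rested on CM mouse 3 and CM/miR-126Δ/Δ mouse 3. With the genotype means taken out the order of the pairs was another one, with an adjusted p of 0.101 as the lowest. Rian and Ndn then had r = 0.782 (0.606 before), Dlk1 and Ndn 0.770 (0.321 before), Meg3 and Rian 0.724, Ndn and Grb10 0.7102, Dlk1 and Grb10 0.665 and Rian and Dlk1 0.471. Same-numbered mice may not be independent, which these tests do not take into account.

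For the 3 members with a mean of at least 1 CPM, genes with a similar course over the 10 libraries were sought among 12274 others by Pearson's r of log2 CPM. Among the highest were Tjap1 (r = 0.923) and Casc3 (0.904) for Dlk1, Adamtsl5 (0.939) for Ndn, and Impad1 (0.967) and Mmgt1 (0.964) for Grb10. These are chosen from many values over the same 10 libraries and are given without a test.

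Other imprinted genes, taken from a list of 45, were measured far better than the members in several cases. Of the 37 with a count, 20 were higher and 17 lower in CM/miR-126Δ/Δ, with a median log2 fold change of 0.040, and 0 were called. An unadjusted p under 0.05 was found for 4 of the 37, all higher in CM/miR-126Δ/Δ, where 6.61% of all genes had one (616 higher and 623 lower). Of these 4, Airn and Kcnq1 were near the floor. Igf2r, which encodes the receptor that clears the Igf2 protein, averaged 10.0 ± 2.99 CPM in CM mice against 13.9 ± 4.02 without miR-126 (SD, n = 5 each; log2 fold change 0.47, standard error 0.208, edgeR adjusted p = 0.748). Airn, the noncoding RNA that is transcribed against Igf2r, had 18 counts in all. Osbpl5, a lipid transfer gene, had a log2 fold change of 0.20 (standard error 0.0856, edgeR adjusted p = 0.748). Kcnq1 had 11 counts in all.

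Kcnq1ot1, the long antisense RNA that lies within Kcnq1, averaged 399 ± 224 CPM in CM mice against 618 ± 184 without miR-126 (SD, n = 5 each; log2 fold change 0.63, standard error 0.298, unadjusted p = 0.0520, edgeR adjusted p = 0.757). Its range of 245 to 790 CPM in CM overlapped with that of 326 to 801 CPM in CM/miR-126Δ/Δ. Per exon length the highest levels on this list were those of Slc22a3, an organic cation transporter, at 90.9 RPKM and of Nap1l4, a histone chaperone, at 71.2 RPKM, with log2 fold changes of −0.00141 and −0.023. These levels lay far above those of the members, of which 2 averaged 1 RPKM or more. Imprinting can differ between tissues, as it does for Grb10, and was not measured in these cells for the members or for this list. Reads of the antisense pairs Airn and Igf2r, and Kcnq1ot1 and Kcnq1, may not have been kept apart.

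Genes that act with Igf2 and Dlk1 were read in the same fit. Of 18 insulin-like growth factor genes 15 had a count, 8 higher and 7 lower in CM/miR-126Δ/Δ, with 0 at an unadjusted p under 0.05 and a median log2 fold change of 0.020. Igf1r, the receptor through which Igf2 signals, averaged 364 ± 44.2 CPM in CM mice against 396 ± 78.6 without miR-126 (SD, n = 5 each; log2 fold change 0.12, standard error 0.134). Igfbp4, a binding protein that holds the growth factors back, was at 332 ± 40.8 and 302 ± 37.1 CPM (log2 fold change −0.13, standard error 0.0990), both within the spread between mice. Per exon length Igfbp4, at a mean of 151.5 RPKM, and Igf1r, at 31.7 RPKM, stood far above Igf2 at 0.125 RPKM. Of 14 Notch genes all 14 had a count, 8 higher and 6 lower, with 0 at an unadjusted p under 0.05. Notch2 averaged 523 ± 52.7 CPM in CM mice against 565 ± 87.0 without miR-126, and Notch1 276 ± 63.8 against 289.7 ± 52.2 CPM (SD, n = 5 each). The Notch target gene Hey1, at 0.625 ± 0.620 and 0.258 ± 0.216 CPM, had a log2 fold change of −1.25 (standard error 0.751, edgeR adjusted p = 0.765), and Dlk2, the relative of Dlk1, had 15 counts in all.

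Markers of other cell types were read in the same libraries, and their part in the members' values was not tested. The counts do not tell whether such RNA came from cells outside the gate or from the LSK cells themselves. Endothelial markers summed to 210.1 to 259.8 CPM in CM and 207 to 251 CPM in CM/miR-126Δ/Δ, mostly Pecam1, and T and NK cell markers summed to at most 12.3 CPM. Granulocyte-monocyte markers, led by Mpo, ranged from 2018 to 3826 CPM in CM and from 1720 to 4545 CPM in CM/miR-126Δ/Δ, mast cell-basophil markers from 132 to 289.7 and 134 to 271 CPM, and erythroid markers from 12.7 to 122 and 31.4 to 91.1 CPM. B cell markers, mostly Cd79b, were at 28.2 to 39.8 and 24.5 to 38.3 CPM, and megakaryocyte markers at 147 to 223 and 113 to 197 CPM. Lower in CM/miR-126Δ/Δ, as was Dlk1, were 6 of 6 B cell markers (median log2 fold change −0.33) and 5 of 5 T and NK cell markers (−0.17). So were 6 of 7 endothelial markers (−0.11) and 3 of 5 mast cell-basophil markers (−0.056). Higher were 7 of 9 granulocyte-monocyte markers (0.28), 3 of 5 erythroid markers with a count (0.020) and 3 of 5 megakaryocyte markers (0.052). Of the 18747 genes fitted, 9865 were lower. None of the markers on these 7 lists or on the stroma list had an unadjusted p under 0.05 in edgeR.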

How the data were processed

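RNA from LSK cells of 10 mice was depleted of ribosomal RNA and sequenced as single reads. After trimming, the authors used Tophat (mm10) and HTSeq on RefSeq genes, and they deposited whole-number counts per gene without normalization, together with the exon length of each gene. The strand setting of HTSeq is not given in the sources used here. A second table, named as RPKM, held these counts divided by 1 constant per library and was not used. All 18747 genes with at least 1 count entered a quasi-likelihood fit of genotype alone (edgeR 4.0.16 with its legacy option and TMM factors, R 4.3.3). Its two-sided p was adjusted by Benjamini-Hochberg over those genes, and a standard error is |log2 fold change|/√F. CPM and RPKM were computed from counts, TMM-scaled library sizes and exon lengths. Exact permutation tests ran over the 252 ways to choose 5 of 10 mice, and correlations (prior count 2) over 100000 permutations, in Python 3.11.15 with scipy 1.17.1. The fit was tested on simulated data before use. No 2 libraries of a genotype agreed within sampling noise (lowest chi-square per degree of freedom 11.2). The labels do not say which mice shared a litter or day, and p-values measure only the spread between these samples.

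The members and all lists were chosen with earlier results of these data known. Genes named beyond the members are, of each list, at most 5 with the smallest p, the 2 most similar genes of each member with a mean of at least 1 CPM (1 is not reported here), up to 6 genes of the 2 loci with most counts and a few levels or markers picked after their values were seen. Seed sites of miR-126a-3p alone were sought in the longest 3′ untranslated region per gene of GENCODE M1 transcripts. These follow an older build, so only their sequence was used. Alternatives were RLE factors, DESeq2 1.42.0, the quasi-likelihood of edgeR 4, filterByExpr, all listed genes, a replicate block, Rn45s left out, each mouse left out, no requirement on RPKM, for correlations a prior count of 0.5, genotype means subtracted and 2 mice left out, and, chosen after seeing the data, sex read from Xist and Ddx3y as a covariate.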

Additional observations from a re-analysis of the deposited data

Results flagged for a closer look

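Of 20 groups of 5 mice (10 members in 2 genotypes), 2 had a single distant value. For continuous values chance alone gives about 1 in 20. That rate need not hold for groups at the floor, such as Mirg in CM/miR-126Δ/Δ mice, with 0 counts in every mouse. Meg3 in CM mouse 3 was at 1.68 CPM (41 counts), with the other CM mice at 0.437 to 0.792 CPM. H19 in CM/miR-126Δ/Δ mouse 5 was at 0.206 CPM, with the other 4 at 0.0396 to 0.0871 CPM, a value that rests on 5 counts.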

How the results depend on the processing

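Dlk1 stayed lower in CM/miR-126Δ/Δ under all 18 alternatives (log2 fold change −1.24 to −0.95, unadjusted p of 0.00234 or less), with −1.24 to −0.95 when each mouse was left out. Its adjusted p passed 0.05 with DESeq2 alone (log2 fold change −1.10, adjusted p = 0.0242). The number of members called was 0, and it was 1, Dlk1, without the requirement on RPKM, as was the number with an adjusted p under 0.05 in DESeq2. The number of genes called went from 54 to 111 without the requirement on RPKM, to 2 with an adjusted p under 0.05 alone, and to 33 to 128 with a mouse left out, lowest without CM/miR-126Δ/Δ mouse 5 and highest without CM mouse 3, with 85 and 94 without CM/miR-126Δ/Δ mice 1 and 4. Genes with an adjusted p under 0.05 numbered 2, against 45 with DESeq2, 20 with the replicate block, 4 with filterByExpr, 4 with sex as a covariate (chosen after seeing the data) and 1 to 7 with a mouse left out. With filterByExpr, which dropped H19, Mirg and Peg3, 73 in place of 111 genes met p and fold.

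With the replicate block 115 genes were called, and Dlk1 had a log2 fold change of −1.13 (adjusted p = 0.0557 from edgeR). Same-numbered mice deviated together in 4 of 5 pairs (r = 0.161 to 0.429) and not in mouse 5 (−0.00365). The mean r was 0.214 for the same number and −0.0542 for other numbers, and Xist and Ddx3y also went with the number. The value of mouse 5 does not show that the mice were unpaired. Since the labels do not state pairs, the main fit and the permutation tests treated the mice as independent, which may not hold. The sign of Meg3 turned with edgeR 4 (0.016) and the replicate block (0.036), and with a mouse left out the log2 fold change ran from −0.17 to 0.40 for Meg3, from −0.21 to 0.058 for Grb10, from −0.74 to 0.17 for Plagl1 and from −0.033 to 0.25 for Ndn. Correlations turned sign without the 2 farthest mice for Igf2 with Meg3 (−0.329), Rian (−0.488) and Grb10 (0.00664) and for Meg3 with Dlk1 (−0.624). With genotype means taken out they turned for Dlk1 with Igf2 (0.103), Meg3 (−0.0524) and Plagl1 (−0.0574). The cause of these changes was not tested. Depth limits H19, Mirg and Peg3 (under 2 counts per library).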
